A study of Manis javanica with 3 samples.

Results

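Wnt ligands, their receptors and their regulators were examined in 3 organs of the Malayan pangolin (Manis javanica), sampled as salivary glands, liver and small intestine. The genes were taken from the deposited annotation by the gene symbol of the best Swiss-Prot match, where that symbol started with WNT, FZD, SFRP, DKK or RSPO or was that of a receptor, a ubiquitin ligase, a destruction complex gene or a TCF/LEF factor of the pathway. This gave 42 genes, of which 41 were among the 24220 genes with expression values, while WNT10B was not analysed here. RNA came from 1 wild adult female that died during rescue, with 1 library for each of the 3 tissues and no treatment, so no value below has a replicate check and no p-value is given. The intervals printed are 95% exact intervals of a ratio of counts, and they cover counting error only.

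Wnt proteins are lipid-modified secreted ligands that bind a frizzled receptor together with LRP5 or LRP6. In the absence of a ligand, a complex of AXIN, APC and kinases marks β-catenin for degradation, and binding of a ligand lets β-catenin reach the nucleus and act with TCF/LEF factors on target genes. SFRP, WIF and DKK proteins hold the signal back outside the cell, whereas R-spondins raise it by binding LGR receptors and removing the ligases ZNRF3 and RNF43 from the cell surface. The pathway is known for keeping stem cells of the gut in division and for setting the metabolic zones of the liver lobule.

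The symbols did not keep paralogs apart. The 42 genes carried only 13 distinct symbols, and 11 of them carried FZD6 and 7 carried WNT2. The product name of the NR database entry, or the KEGG entry for WNT2B, WNT9A and LGR5, was therefore used to name each gene, and for 29 of the 42 genes this name differed from the symbol. By these names the set held 16 Wnt ligands, all 10 frizzled receptors, 7 R-spondins and LGR receptors, 4 SFRP antagonists and CTNNB1, the gene of β-catenin. The other 4 genes were SMO, LRRC26, SLIT2 and COL18A1. SMO is a Hedgehog pathway protein that resembles frizzled proteins, LRRC26 and SLIT2 are leucine-rich repeat proteins, and COL18A1 is a collagen with a frizzled-like domain. This left 37 genes of the pathway itself with expression values. A further 28 genes of the same families had another symbol or none and were found only by product name, among them WNT4, WNT5A, LRP5, LRP6, WIF1, NOTUM, AXIN2 and the DKK genes. Their values are given beside the others, and it is said where they are used. By any name there were 19 Wnt ligand genes, and the same 19 symbols stood in the RefSeq gene table of this species (assembly MJ_LKY).

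The libraries held 8318686 to 14568778 counts on genes, and a count of 0 allows up to 0.206 to 0.361 CPM (counts scaled to a fixed library total). The library labelled small intestine went against its label in its gastric and enterocyte genes. Of 15 gastric genes, 12 had an FPKM (fragments per kilobase of transcript, scaled to the mapped fragments) above 1 there, with a median of 262.1, and their summed FPKM was 153300 there, 125.7 in the salivary glands and 1.42 in the liver. Of 13 enterocyte genes only VIL1, an actin-bundling protein of many epithelia, had an FPKM above 1 in it, and FABP2, LCT and CDX1 were at 0. Of 7 goblet and Paneth cell genes, 4 had an FPKM above 1 in this library. The summed FPKM of the 7 was 4205 there, 43.4 in the salivary glands and 33.0 in the liver. The library is called the library labelled small intestine throughout. Of 14 salivary gland symbols only 6 were found, and their median FPKM in the salivary glands was 0.275. Only 2 of the 6 passed an FPKM of 1 there, AQP5 at 94.3 and BPIFB2 at 15.99. In the library labelled small intestine 1 of the 6 did, and in the liver 2 did. All 10 hepatocyte genes found had an FPKM above 1 in the liver. Muscle and connective tissue markers were also uneven. The summed FPKM of 8 smooth muscle genes was 3709 in the library labelled small intestine, 406.0 in the salivary glands and 41.2 in the liver. That of 12 fibroblast genes was 615.8, 95.6 and 227.0 in the same order, while their median FPKM was 12.3, 1.92 and 1.52. COL1A1 and FOXL1 were at 0 in the liver, but the COL1A1 model had only 18 and 8 counts in the others. In such bulk samples fewer cells of a type and less RNA per cell cannot be told apart.

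The share of members above an FPKM of 1 was near that of all genes in the library labelled small intestine, and lower in the salivary glands and the liver. An FPKM above 1, the level at which the study takes a gene as expressed, was reached by 22 of 41 members (53.7%) in the library labelled small intestine, 14 (34.1%) in the salivary glands and 11 (26.8%) in the liver. The share of all genes above this level was 59.4%, 56.3% and 57.0%, in the same order. The median FPKM of the members was 1.51, 0.358 and 0.207, and that of all genes was 2.16, 1.76 and 1.89. In at least 1 library 25 members (61.0%) were above 1, against 69.3% of all genes, and 8 were above 1 in all 3 libraries. WNT8A and RSPO4 had no count in any library, as did 13.0% of all genes, and 8 members had fewer than 10 counts over the 3 libraries. Of the 39 members with a count, 23 had their highest FPKM in the library labelled small intestine, 7 in the salivary glands and 9 in the liver.

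**Figure D1:**
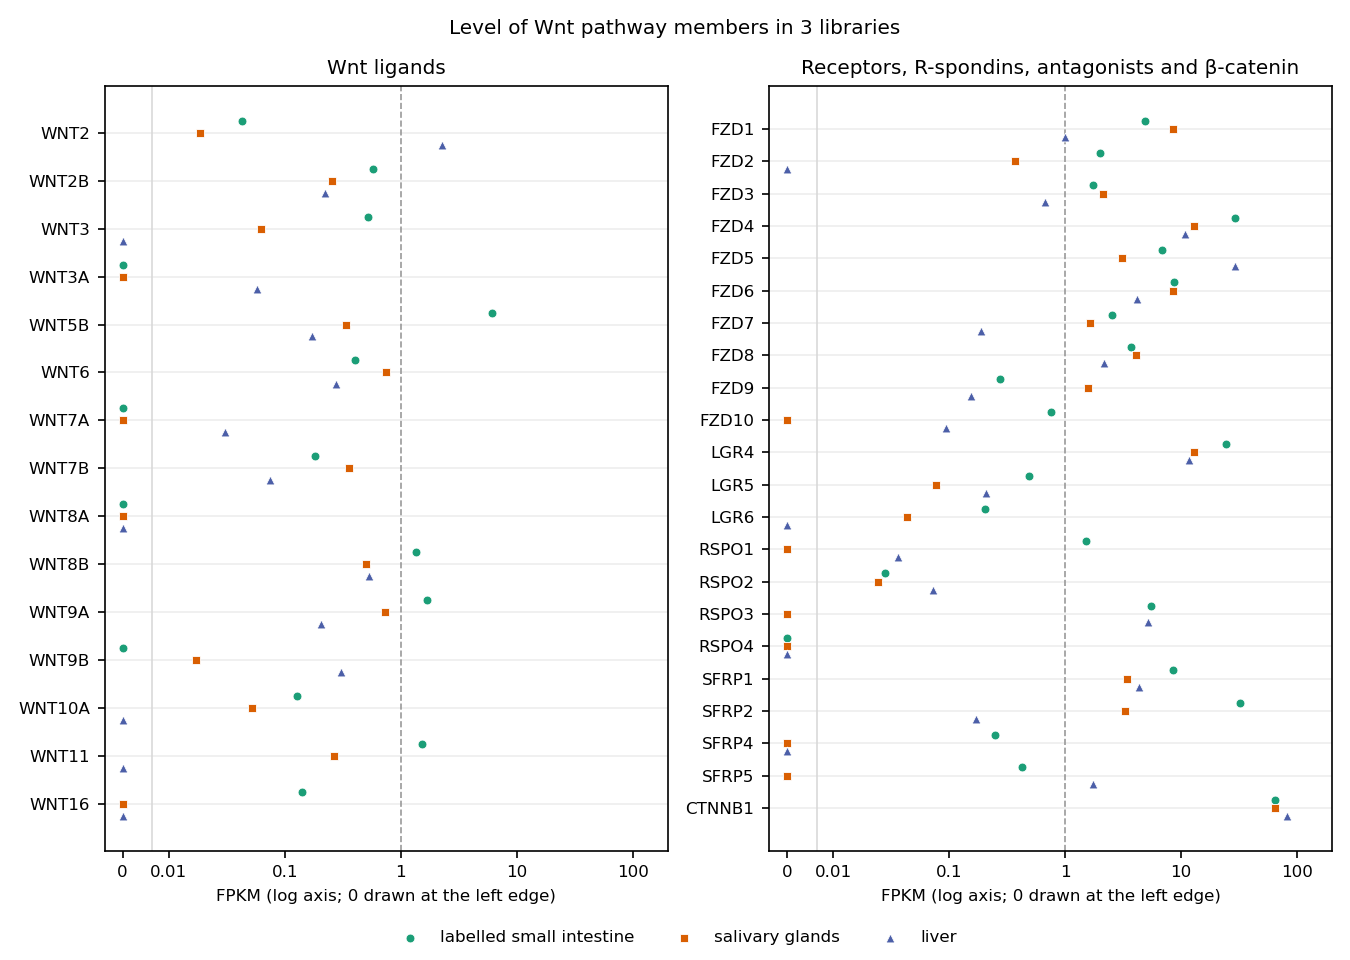
FPKM on a log axis (0 drawn at the left edge, dashed line at 1) of the 37 members with a Wnt pathway product name, 1 point for each of the 3 libraries. Most ligands lie below an FPKM of 1, with WNT5B at 6.15 in the library labelled small intestine and WNT2 at 2.26 in the liver standing to the right of the line, while CTNNB1 lies furthest right, at 64.2 to 82.3.

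To compare libraries, the ratio of counts scaled by TMM (trimmed mean of M values) was taken for every gene with at least 10 counts over the 2 libraries, and a gene was called higher or lower where the whole counting interval lay beyond 2-fold. Between the library labelled small intestine and the salivary glands, 8 of 30 members were called higher in the former and 1 lower, where 12.9% of all 17045 genes were called higher and 8.53% lower. With library size only as the scaling this was 7 higher and 3 lower. Against the liver, 17 of 33 members were higher in the library labelled small intestine and 5 lower, where 18.1% and 15.0% of 17855 genes were. Between the salivary glands and the liver, 7 of 27 members were higher in the glands and 6 lower, where 16.0% and 16.4% of 17583 genes were. The median log2 difference of the members was 1.11, 1.43 and 0.42 in these 3 comparisons, and that of all genes was -0.01, -0.06 and -0.05. Without SMO, LRRC26, SLIT2 and COL18A1 the counts were 6 higher and 1 lower of 26, 14 and 4 of 29, and 6 and 5 of 23. Of the 28 pathway genes outside the symbol rule, 10 of 23 were higher and 1 lower in the first comparison, 9 and 2 of 24 in the second, and 2 and 3 of 22 in the third.

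**Figure D2:**
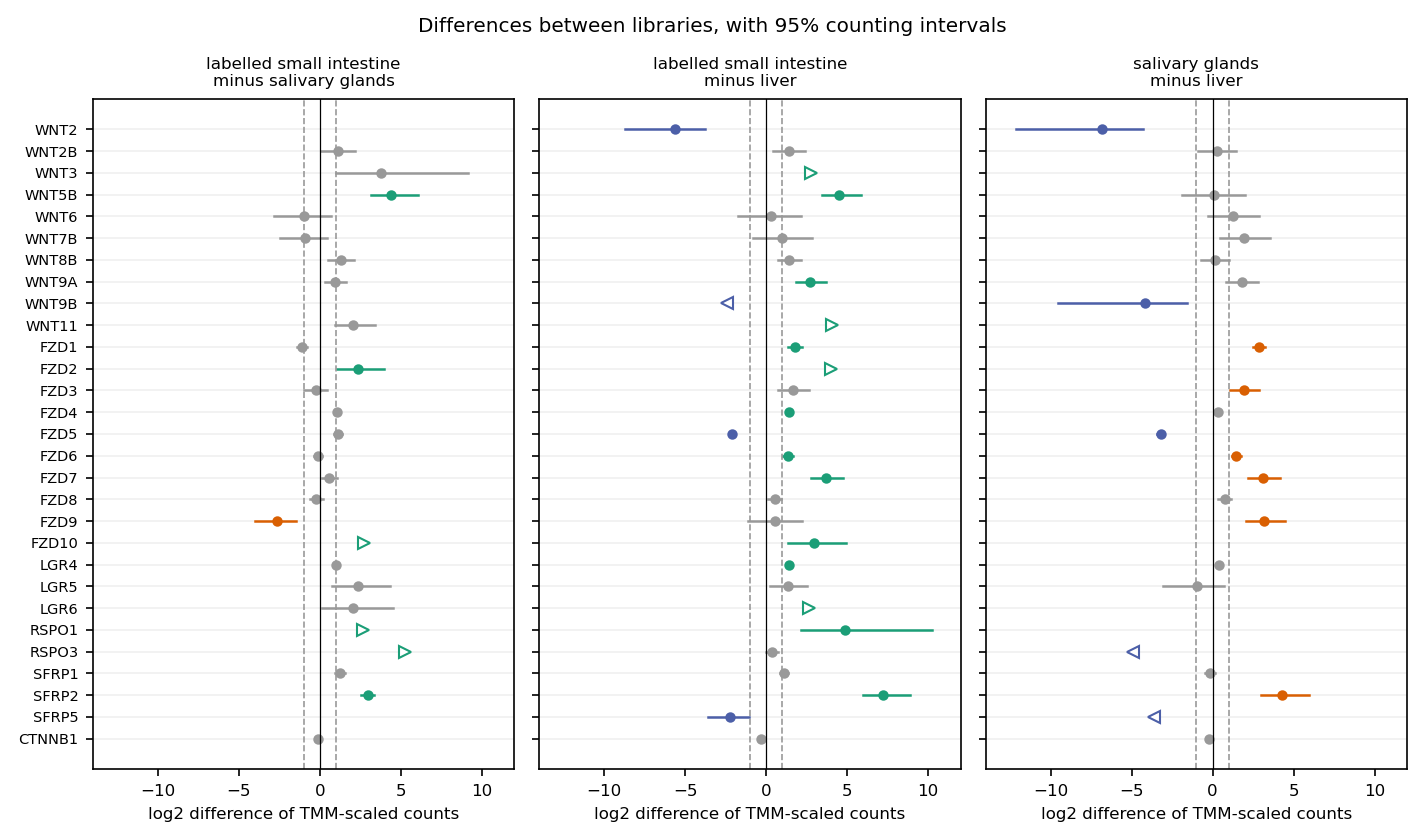
Log2 difference of TMM-scaled counts for members with at least 10 counts over 2 libraries, in 3 panels for the 3 pairs of libraries, with 95% counting intervals as lines. Open triangles are ratios to a floor of 3 counts, without counting error, where 1 library had no count. Dashed lines mark 2-fold, and coloured points are those with the whole interval beyond it. The colour is that of the higher library (green, labelled small intestine, orange, salivary glands, and blue, liver). WNT2, WNT9B, FZD5 and SFRP5 lie on the liver side of both panels with the liver.

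The ligands expressed in the 3 libraries were not the same. The 18 Wnt genes with expression values include WNT4, WNT5A and WNT1, found by product name. Of these 18, only 5 had an FPKM above 1 in the library labelled small intestine, 1 had in the salivary glands and 1 in the liver. The FPKM summed over the ligands was 14.3, 4.86 and 4.75, in the same order, and rested on 354, 172 and 317 counts. The ligand with the highest FPKM was WNT5B in the library labelled small intestine, WNT4 in the salivary glands and WNT2 in the liver.

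WNT5B, a ligand best known for signalling without β-catenin, had 95 counts (FPKM 6.15) in the library labelled small intestine, 5 (0.338) in the salivary glands and 7 (0.171) in the liver. It was high in the first library alone, 21.4-fold above the salivary glands (interval 8.84 to 67.3) and 23.0-fold above the liver (10.7 to 58.7). Its relative WNT5A, found by product name, was also highest there, with 57 counts (FPKM 1.18), 4 (0.0835) and 16 (0.221). The difference of WNT5A was 16.02-fold (5.93 to 60.8) against the salivary glands and 6.03-fold (3.42 to 11.3) against the liver. WNT11, a ligand of the planar polarity branch, had 30 counts (FPKM 1.51), 8 (0.269) and 0. It was at least 16.9-fold higher in the library labelled small intestine than in the liver, where the floor is 3 counts, while its 4.22-fold difference from the salivary glands (1.89 to 10.6) reached below 2-fold. The smooth muscle and fibroblast markers given above were highest in the same library, and their part in these values was not tested.

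WNT2 showed the opposite distribution. It had 170 counts (FPKM 2.26) in the liver, 2 (0.043) in the library labelled small intestine and 1 (0.0184) in the salivary glands. The liver was 50.2-fold above the library labelled small intestine (13.7 to 418) and 113-fold above the salivary glands (19.99 to 4486), the wide intervals coming from 1 and 2 counts. WNT9B had 27 counts (FPKM 0.305) in the liver, 0 in the library labelled small intestine and 1 (0.0171) in the salivary glands, which made it at least 5.32-fold and 17.9-fold (2.96 to 734) higher in the liver. WNT2 and WNT9B are known as the ligands that endothelial cells of the liver vessels supply to hepatocytes. Of 14 endothelial marker genes, 11 had an FPKM above 1 in the library labelled small intestine, 9 in the salivary glands and 12 in the liver, with a summed FPKM of 84.8, 51.4 and 106.3. STAB2, a receptor of the liver sinusoid, had 11, 0 and 171 counts, and CLEC4G, a lectin of the same cells, had 8, 19 and 688. Of 13 endothelial gene models tested, 6 were called higher in the liver than in the library labelled small intestine and 2 lower. Of all genes 15.0% and 18.1% were. Against the salivary glands 9 were higher in the liver and 2 lower, beside 16.4% and 16.0%. The 2 lower ones were VWF models (775, 728 and 101 counts, and 127, 143 and 18). PECAM1 and CDH5 were called in no comparison. The part of endothelial cells in the ligand counts was not tested.

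Of the ligands that act mainly through β-catenin, few passed an FPKM of 1. WNT3, the Paneth cell ligand of the mouse intestine, had 12 counts (FPKM 0.519) in the library labelled small intestine, 1 (0.0626) in the salivary glands and 0 in the liver. It was at least 6.77-fold higher in the first library than in the liver, and its ratio to the salivary glands of 13.5 had an interval from 2.0 to 577 and was not called. WNT9A had 55 counts (FPKM 1.68), 32 (0.74) and 14 (0.207), and the library labelled small intestine was 6.65-fold above the liver (3.65 to 12.9). WNT8B had 48 counts (FPKM 1.35), 22 (0.503) and 30 (0.532), with no difference called. WNT2B, a stromal ligand of the gut, had 25 counts (FPKM 0.583), 13 (0.255) and 16 (0.223), and no difference was called for it either.

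The salivary glands held the highest values of WNT4, WNT6 and WNT7B. WNT4, a ligand of duct and tubule formation that was found by product name, had 58 counts (FPKM 1.42) in the salivary glands, 13 (0.462) in the library labelled small intestine and 22 (0.384) in the liver, and both differences were 3.97-fold (2.15 to 7.89 and 2.39 to 6.81). WNT6 had 11 counts (FPKM 0.747) in the salivary glands against 5 and 7, and WNT7B had 15 (0.358) against 7 and 6. Neither was called, and at these counts a difference of several-fold was not detectable. WNT10A, WNT16, WNT3A and WNT7A had at most 3 counts in any library, and WNT1, found by product name, had none.

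Several ligand genes lie next to each other on the scaffolds of the genome used by the authors, whose build is not named. WNT9A (125223 to 135460, minus strand) and WNT3A (168120 to 208208, plus strand) share a scaffold with 32659 bases between them, and WNT9B and WNT3 are separated by 25154 bases. WNT6 and WNT10A lie 6542 bases apart on the same strand. Neighbours had unlike values. WNT9B was counted almost only in the liver and WNT3 almost only in the library labelled small intestine, while WNT9A had 14 to 55 counts a library and WNT3A at most 1.

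All 10 frizzled genes, the receptors with an extracellular Wnt-binding domain and a membrane-spanning body, were counted in at least 1 library. Their summed FPKM differed little, at 60.4 in the library labelled small intestine, 42.9 in the salivary glands and 48.3 in the liver, but different receptors made it up. FZD4 gave 48.1% of it in the library labelled small intestine, 30.1% in the salivary glands and 22.2% in the liver, and FZD5 gave 11.3%, 7.25% and 60.3%. FZD1 gave 8.07%, 20.01% and 2.07%, and FZD6 gave 14.3%, 19.8% and 8.56%. An FPKM above 1 was reached by 8 frizzled genes in each of the first 2 libraries and by 4 in the liver.

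**Figure D3:**
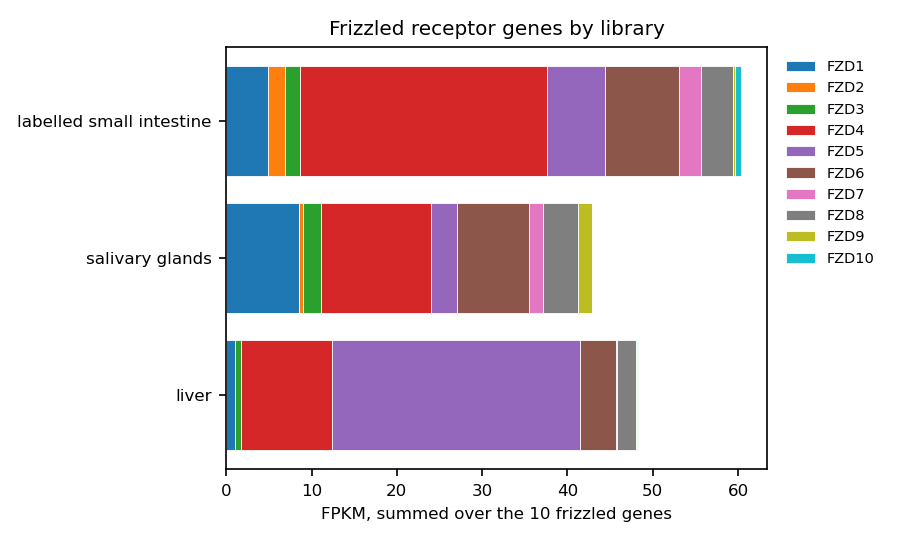
Summed FPKM of the 10 frizzled genes in each of the 3 libraries, with 1 colour per gene. FZD4 takes 48.1% of the bar of the library labelled small intestine and FZD5 takes 60.3% of the liver bar, while FZD1, FZD4 and FZD6 take the largest parts in the salivary glands.

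FZD5, a receptor with a role in Paneth cells and in the vasculature of the yolk sac, had 2820 counts (FPKM 29.1) in the liver, 388 (6.80) in the library labelled small intestine and 203 (3.11) in the salivary glands. The liver was 4.29-fold above the first (3.86 to 4.79) and 9.23-fold above the second (8.0 to 10.7). It was the only frizzled gene called higher in the liver in these comparisons. FZD4, the receptor of the endothelial ligand norrin, had 1746 counts (FPKM 29.0), 923 (12.9) and 1094 (10.7), and the library labelled small intestine was 2.70-fold above the liver (2.50 to 2.92). Its 2.13-fold difference from the salivary glands (1.96 to 2.31) was not called.

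The other frizzled genes that were called in a comparison with the liver were lower there. FZD7, a receptor of intestinal stem cells in the mouse, had 85 counts (FPKM 2.56), 63 (1.63) and 11 (0.19), so the liver was 13.1-fold (6.95 to 27.2) and 8.62-fold (4.51 to 18.1) below the other libraries. FZD1 had 133 counts (FPKM 4.87), 317 (8.57) and 66 (0.999), with ratios to the liver of 3.41 (2.52 to 4.65) and 7.23 (5.53 to 9.58). Its 2.12-fold excess in the salivary glands over the library labelled small intestine (1.73 to 2.62) was called only with library size as the scaling. FZD6, which acts mainly in planar polarity, had 254 counts (FPKM 8.65), 306 (8.48) and 168 (4.13), and its ratios to the liver were 2.56 (2.10 to 3.13) and 2.74 (2.26 to 3.33), the former not called with library size only. FZD3, another polarity receptor, had 30 counts (FPKM 1.76), 40 (2.14) and 16 (0.677), and only the 3.76-fold difference between salivary glands and liver (2.06 to 7.20) was called.

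FZD9 was highest in the salivary glands, with 48 counts (FPKM 1.57) against 7 (0.275) in the library labelled small intestine and 8 (0.155) in the liver. The differences were 6.10-fold (2.74 to 15.98) and 9.03-fold (4.24 to 22.1). FZD2 and FZD10 were highest in the library labelled small intestine. FZD2 had 28 counts (FPKM 1.99), 6 (0.37) and 0, a 5.25-fold difference from the salivary glands (2.13 to 15.5), which was not called with library size only, and at least 15.8-fold from the liver. FZD10 had 18 counts (FPKM 0.749), 0 and 4 (0.0936), at least 6.75-fold and 7.62-fold (2.51 to 30.9). FZD8 had 97 counts (FPKM 3.72), 126 (4.10) and 114 (2.18) and was called in no comparison.

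The co-receptors LRP5 and LRP6, found by product name, varied less. LRP5 had 854 counts (FPKM 17.4), 1066 (17.7) and 1026 (10.1), with ratios from 1.11 to 1.56 between libraries. LRP6 had 226 counts (FPKM 2.88), 344 (3.98) and 636 (5.84) on its longer gene model, with ratios from 1.23 to 1.66, and a shorter model with the same product name had 10, 35 and 55 counts. None of these differences was called. Of 16 genes of other co-receptors and surface proteins, 14, 11 and 6 had an FPKM above 1. The highest FPKM, at 53.0, 33.1 and 103, belonged to a gene with the product name of LMBR1L, a lipocalin receptor-like protein, but with the Swiss-Prot symbol of the tubulin TUBA4A, so its identity is uncertain. It was followed by the gene with both the product name and the symbol of LMBR1L at 13.2, 20.3 and 44.7, and by RYK, a receptor-like kinase for Wnt, at 9.11, 11.2 and 9.96. In the list 6 of 14 were higher and 1 lower in the library labelled small intestine than in the liver, beside 18.1% and 15.0% of all genes, among the higher ones ROR2, the receptor of WNT5A, with 156, 24 and 86 counts.

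The SFRP genes, which encode soluble proteins with the Wnt-binding domain of a frizzled receptor, had a summed FPKM of 41.5 in the library labelled small intestine, 6.67 in the salivary glands and 6.23 in the liver. SFRP2 had 442 counts (FPKM 32.2), 64 (3.27) and 5 (0.171). The library labelled small intestine was 7.76-fold above the salivary glands (5.96 to 10.3) and 150-fold above the liver (63.6 to 463), and the salivary glands were 19.3-fold above the liver (7.84 to 61.4). A new gene on the opposite strand of the same scaffold, 34599 bases away and also named SFRP2, had 11 counts, 0 and 0, and whether both are 1 locus was not tested. SFRP1 had 297 counts (FPKM 8.60), 141 (3.40) and 235 (4.32). Its ratios of 2.37 to the salivary glands (1.93 to 2.91) and 2.14 to the liver (1.8 to 2.55) reached below 2-fold and were not called. SFRP5 was highest in the liver, with 55 counts (FPKM 1.73) against 7 (0.421) and 0, which is 4.64-fold (2.11 to 12.1) above the library labelled small intestine and at least 12.2-fold above the salivary glands. SFRP4 had 4 counts in the library labelled small intestine and 0 in the others.

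Several antagonists that the symbol rule missed were also high in the library labelled small intestine. WIF1, which binds Wnt proteins directly, had 284 counts (FPKM 16.99), 24 (1.22) and 41 (1.49), which is 13.3-fold (8.76 to 21.1) and 11.7-fold (8.43 to 16.7). DKK3 had 295 counts (FPKM 12.3), 125 (4.13) and 15 (0.346), with ratios of 2.65 (2.15 to 3.30) and 33.3 (19.9 to 60.2). DKK2, an LRP6 antagonist, had 62 counts (FPKM 2.12), 4 (0.0856) and 0, which is 17.4-fold (6.47 to 66.0) and at least 34.98-fold. DKKL1, better known from the testis, had 111 counts (FPKM 13.7), 36 (3.38) and 65 (4.11), while DKK1 had 1 count in all and DKK4 none. FRZB, a further SFRP family member, had 584 counts (FPKM 16.3), 2 (0.0254) and 308 (5.63). It was 328-fold above the salivary glands (90.5 to 2717) in the library labelled small intestine and 102-fold above them (28.1 to 848) in the liver. Several of these genes are known from stromal cells and muscle layers of the gut. The summed FPKM of the smooth muscle and fibroblast lists was also highest in the library labelled small intestine. The part of those cells was not tested.

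NOTUM, a secreted enzyme that removes the lipid from Wnt proteins and is itself induced by the pathway, was the main exception. It had 773 counts (FPKM 21.9) in the liver, 42 (2.41) in the library labelled small intestine and 9 (0.39) in the salivary glands. The liver was 10.9-fold (7.97 to 15.2) and 57.0-fold (29.9 to 125) above the others. Of 10 other antagonist genes, IGFBP4, an insulin-like growth factor binding protein that also binds frizzled, had the highest FPKM, at 174, 26.6 and 736. It was followed by FRZB and by APCDD1, a membrane antagonist, which had 76 counts (FPKM 2.76), 30 (1.0) and 669 (13.4). Thus the liver held the highest values of NOTUM, IGFBP4, APCDD1 and SFRP5, and the library labelled small intestine those of SFRP1, SFRP2, FRZB, WIF1, DKK2, DKK3 and DKKL1.

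**Figure D4:**
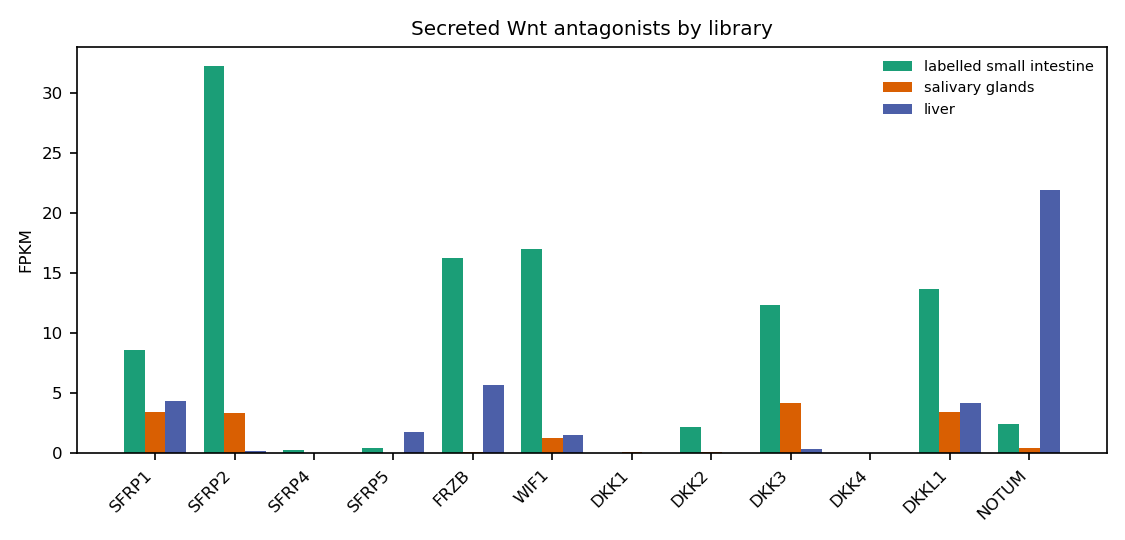
FPKM of 12 secreted antagonist genes as bars from 0, in the 3 libraries; SFRP1, SFRP2, SFRP4 and SFRP5 follow the symbol rule and the rest were found by product name. SFRP2 (32.2), WIF1 (16.99) and FRZB (16.3) are the tallest bars of the library labelled small intestine, and NOTUM (21.9) is the tallest of the liver.

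R-spondins were nearly absent from the salivary glands. RSPO3, the R-spondin of the stem cell niche of the gut and of the central vein of the liver, had 104 counts (FPKM 5.55) in the library labelled small intestine, 136 (5.14) in the liver and 0 in the salivary glands, which allows up to 0.361 CPM. It was at least 39.0-fold and 30.1-fold higher in these libraries than in the salivary glands, and the ratio of the first to the liver was 1.29 (0.993 to 1.68). RSPO1 had 17 counts (FPKM 1.52), 0 in the salivary glands and 1 (0.0362) in the liver, at least 6.37-fold and 28.8-fold (4.51 to 1203). RSPO2 had 1, 1 and 4 counts, so its levels could not be compared, and RSPO4 had none. Over the 4 R-spondins the salivary gland library thus held a single count.

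Of the receptors of R-spondins, LGR4 was by far the most abundant. LGR4 had 807 counts (FPKM 24.6), 454 (12.8) and 511 (11.7), 2.67-fold (2.39 to 2.99) above the liver in the library labelled small intestine, and its ratio of 2.0 to the salivary glands (1.78 to 2.25) was not called. LGR5, the marker of intestinal stem cells and a target of the pathway, had only 18 counts (FPKM 0.49), 4 (0.0769) and 12 (0.21), and its ratio of 2.54 between the first library and the liver (1.16 to 5.78) was not called. LGR6 had 11 counts (FPKM 0.202), 3 (0.0433) and 0, at least 6.21-fold against the liver. The ligases ZNRF3 and RNF43, found by product name, were present throughout. ZNRF3 had 258 counts (FPKM 4.69), 169 (2.43) and 741 (7.17), and the liver was 2.91-fold above the salivary glands (2.46 to 3.46). RNF43 had 91 counts (FPKM 2.12), 111 (2.06) and 90 (1.11), with no call.

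Inside the cell, CTNNB1 and AXIN1 varied little. CTNNB1 was the most abundant member in every library, with 1676 counts (FPKM 64.2), 2015 (64.2) and 3588 (82.3). The salivary glands were 1.07-fold above the library labelled small intestine (1.0 to 1.14), and the liver was 1.26-fold (1.19 to 1.34) and 1.18-fold (1.12 to 1.25) above the others. AXIN1, the scaffold of the destruction complex, had 771 counts (FPKM 29.0), 1055 (31.1) and 1378 (25.4) on its longer model, and APC had 291 (2.62), 342 (2.65) and 991 (6.58) on its longer one. APC was 2.01-fold above the library labelled small intestine in the liver (1.76 to 2.30), which was not called. A second model of each of these genes lay on another scaffold, and reads may have been split between them. The second model of APC had 2, 7 and 36 counts and was called 10.6-fold higher in the liver than in the library labelled small intestine (2.74 to 91.2), and that of AXIN1 had 193, 160 and 240 counts and was not called.

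AXIN2, a negative regulator that is induced by β-catenin in most tissues, did differ. It had 209 counts (FPKM 5.25) in the library labelled small intestine, 55 (1.11) in the salivary glands and 135 (1.89) in the liver. The first was 4.27-fold (3.16 to 5.86) and 2.62-fold (2.10 to 3.28) above the others, and the liver was 1.63-fold above the salivary glands (1.18 to 2.27). The order of AXIN2 was thus unlike that of NOTUM, whose highest value was in the liver.

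Among the TCF/LEF factors, which bind DNA and carry β-catenin, TCF7L1 had the highest FPKM of any single gene model in each library. It had 15.3, 7.03 and 5.91 from 424, 238 and 284 counts. It was 2.53-fold higher in the library labelled small intestine than in the liver (2.17 to 2.95). TCF7L2, the main factor of the intestine, was split over 3 gene models. One had 147 counts (FPKM 5.82), 50 (2.04) and 156 (4.72), one had 66 (7.32), 33 (1.93) and 65 (2.96), and the last had 12, 8 and 10. The first of these models was called 3.31-fold higher in the library labelled small intestine than in the salivary glands (2.38 to 4.65), and the others were not called. With TCF7L2 split in this way, TCF7L1 and TCF7L2 were not ranked as whole genes. TCF7 had 16, 7 and 36 counts, and LEF1, a factor of lymphocytes and hair follicles, had 5, 3 and 3.

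Genes that make, carry and modify the signal were expressed in each tissue. Of 8 Wnt secretion genes, 6, 7 and 6 had an FPKM above 1. The 3 with the highest FPKM were TMED2 and TMED5, cargo receptors of the secretory pathway, at 106, 207 and 254 and at 7.12, 21.4 and 60.7, and SNX3, a retromer sorting protein, at 40.1, 58.5 and 33.7. WLS, which carries Wnt proteins to the cell surface, had 394 counts (FPKM 17.6), 472 (18.2) and 173 (4.61). It was called higher in both other libraries than in the liver, with log2 differences of 1.95 and 2.04. In this list 0 of 7 were higher and 2 lower in the library labelled small intestine than in the salivary glands. Of all genes 12.9% and 8.53% were. Against the liver 1 of 7, WLS, was higher and 3 lower, namely TMED2 and 2 models of TMED5, beside 18.1% and 15.0%. In the salivary glands 2 of 8 were higher and 0 lower than in the liver, beside 16.0% and 16.4%. Of 25 transducer genes tested, 5 were higher and 0 lower in the library labelled small intestine than in the salivary glands, and the same numbers held against the liver. Of all genes 12.9% and 18.1% were called higher in these comparisons, close to the share of this list against the liver. The highest FPKM in that list belonged to the casein kinase CSNK1E (71.7, 39.4 and 31.9), the casein kinase CSNK1A1 (58.7, 34.5 and 36.2) and USP7, a deubiquitinase (47.3, 55.9 and 51.4). None of these was called.

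Of 19 nuclear cofactor genes, 5 were higher and 0 lower in the library labelled small intestine than in the liver, beside 18.1% and 15.0% of all genes. AES, a short corepressor, had an FPKM of 146, 225 and 103, CTBP1, another corepressor, had 37.3, 42.6 and 25.2, and CTNNBIP1, an inhibitor that binds β-catenin, had 41.1, 26.2 and 9.15. CTNNBIP1 alone of these was called, higher in both other libraries than in the liver by 1.99 and 1.50 on the log2 scale. In the polarity and calcium branch, 7 of 17 genes were higher and 1 lower in the library labelled small intestine than in the liver, and 5 were higher and 2 lower in the salivary glands than in the liver, where 16.0% and 16.4% of all genes were. RHOA had the highest liver value there, with an FPKM of 70.2, 67.3 and 163, followed by RAC1 (54.3, 74.3 and 73.1) and CAMK2D (24.04, 14.02 and 8.90). CELSR1, an atypical cadherin of planar polarity, had 289, 562 and 23 counts.

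Genes known as targets of the pathway in intestinal stem cells were often higher in the library labelled small intestine than in the liver. Of 22 gene models of this list tested, 14 were higher and 1, NOTUM, lower in the library labelled small intestine than in the liver. Of all genes 18.1% and 15.0% were, and the median log2 difference of the list was 2.14. PROM1, SOX9, TNFRSF19 and NKD1 had 2 models each in this list. Both models of PROM1, SOX9 and TNFRSF19 were called higher in both other libraries than in the liver. Against the liver the salivary glands had 10 of 19 higher and 2 lower, beside 16.0% and 16.4% of all genes. The library labelled small intestine had 8 of 21 higher and 2 lower than the salivary glands, beside 12.9% and 8.53% of all genes. CCND1, a cyclin, had 3866 counts (FPKM 153), 1046 (34.0) and 347 (6.95). CD44, an adhesion receptor, had 1969 counts (FPKM 71.8), 1048 (31.6) and 358 (9.59), and MYC had 1159 (57.9), 1521 (62.2) and 1785 (49.8) and was not called. OLFM4, a stem cell marker of the human intestine, had at most 5 counts in any library. Many of these genes are also used by dividing or ductal cells outside the gut, and both models of SOX9, a transcription factor of such cells, were highest in the salivary glands, at an FPKM of 23.6 and 18.2.

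In the liver the pathway is known to be active around the central vein. Of 19 genes of the pericentral list tested, 10 were higher in the liver than in the library labelled small intestine and 4 lower, and 8 of 19 were higher and 2 lower in the liver than in the salivary glands. Of all genes 15.0% were higher and 18.1% lower in the liver in the former comparison, and 16.4% and 16.0% in the latter. The list includes AXIN2, LGR5, NOTUM and other genes described above. CYP27A1, a bile acid enzyme, had 139 counts (FPKM 7.77), 16 (0.659) and 16337 (463), and OAT, ornithine aminotransferase, had 567 (34.2), 304 (15.1) and 5981 (220). GLUL, glutamine synthetase and the classical pericentral gene, was lowest in the liver, with 24919 counts (FPKM 1096), 91499 (3479) and 3527 (93.5). Of 13 periportal genes, 9 were higher in the liver than in either other library and 4 lower, so the direction was shared by genes of the opposite zone. PCK1, a gluconeogenic enzyme, had the highest FPKM of that list in the liver, at 2584, followed by 2 models of ASS1, a urea cycle enzyme, at 1856 and 1219.

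**Figure D5:**
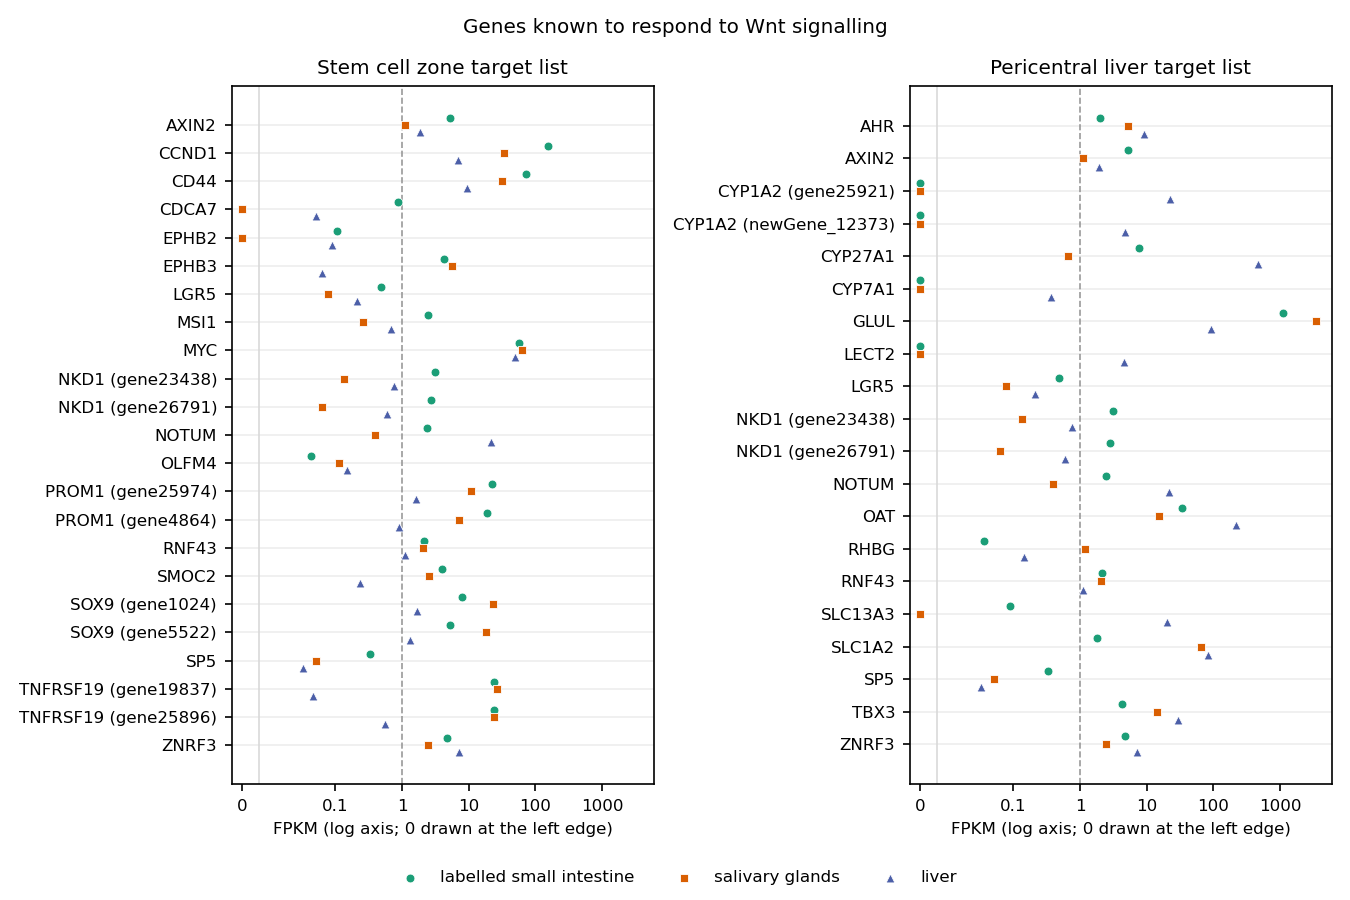
FPKM on a log axis (0 drawn at the left edge, dashed line at 1) of genes known as Wnt targets in intestinal stem cells (left) and around the central vein of the liver (right), 1 point for each of the 3 libraries; genes without a count are left out. CCND1, CD44 and both models of SOX9 are among the genes on the left that lie lowest in the liver, whereas NOTUM and ZNRF3 lie highest there, and GLUL on the right is lowest in the liver at 93.5.

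The 4 members with another product name were each called in 2 of the 3 comparisons. SMO had 180 counts (FPKM 4.88), 23 (0.481) and 8 (0.102) and was 8.80-fold (5.68 to 14.2) and 38.1-fold (18.9 to 89.6) higher in the library labelled small intestine. SLIT2, a guidance protein, had 300 counts (FPKM 7.70), 42 (0.753) and 23 (0.607), at 8.03-fold (5.80 to 11.4) and 22.1-fold (14.4 to 35.4). LRRC26, a potassium channel subunit of gland cells, had 26 counts (FPKM 3.63), 89 (9.88) and 4 (0.26), and the library labelled small intestine and the salivary glands were 11-fold (3.82 to 43.4) and 33.5-fold (12.6 to 126) above the liver. COL18A1 had 458 counts (FPKM 9.22), 382 (5.78) and 1857 (15.4), and the liver was 2.40-fold (2.16 to 2.66) and 3.23-fold (2.89 to 3.61) above the others.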

How the data were processed

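Poly(A)-selected RNA gave paired Illumina reads. The authors aligned clean reads with TopHat2 as unstranded, so reads of overlapping or antisense genes cannot be told apart. The authors name RSEM for FPKM; the genome build and the tool behind the deposited counts are not given in the sources used here. For each gene the authors deposited raw counts, FPKM, and a score (the count times 1 factor per library), which was not used, as well as an annotation against 7 databases.

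Counts were scaled by TMM (edgeR 4.0.16, R 4.3.3), and exact conditional 95% intervals of count ratios were computed with scipy 1.17.1 for genes with at least 10 counts over 2 libraries. A gene was called where the interval lay beyond 2-fold. This replaces a replicate test, which 1 library per tissue does not allow. A count of 0 was set at a floor of 3 counts for the ratios given as "at least". These ratios leave out the counting error of the other count. The ratios were checked on simulated counts. Named genes are the 2 highest by FPKM per role and library, every called member, the 3 highest of each pathway list, LGR5, AXIN2 and NOTUM; STAB2, CLEC4G, ROR2, WLS, CELSR1, SOX9, OLFM4 and further genes found by product name were added after their values were seen. Members and lists were chosen with earlier results of these data known. In each list a gene split over several gene models counts once for each model. No member sequence was at hand, so none is shown. Alternatives were library size only, median-of-ratios factors (DESeq2 1.42.0), FPKM ratios, other thresholds and product names.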

Additional observations from a re-analysis of the deposited data

How the results depend on the processing

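Of the 80 log2 differences of members with counts in both libraries, 4 changed sign, none of them called: COL18A1 between the library labelled small intestine and the salivary glands (0.43 to -0.03) and SFRP1 between salivary glands and liver (-0.15 to 0.07) with library size only, and FZD6 in the former comparison (-0.10 to 0.03) and WNT8B in the latter (0.14 to -0.08) with the FPKM ratio. With median-of-ratios factors all 80 stayed within the counting interval, with library size only 60 did and with the FPKM ratio 68 did. Library size only shifted the median of all genes to -0.47, -0.29 and 0.17 on the log2 scale in the 3 comparisons. With it FZD2 was no longer called against the salivary glands nor FZD6 against the liver in the library labelled small intestine, and FZD1 and LRRC26 were called lower there than in the salivary glands (7 higher and 3 lower), and WNT9A and SMO were called higher in the salivary glands than in the liver. WNT3 was called against the salivary glands with median-of-ratios factors. The members called between the library labelled small intestine and the salivary glands numbered 9. By an FPKM ratio of at least 2 they were 20 (18 higher and 2 lower), and by a TMM fold of at least 2 also 20 (17 and 3), both with no interval. Among the 62 genes found by product name, a larger set in place of the 41 members, 18 were called. Of all genes tested 21.5% were, in either direction. Against the liver the 22 members called became 12 with the interval beyond 4-fold. Members above an FPKM of 1 numbered 22, 14 and 11 of 41, but 11, 7 and 6 above 5, and 20 members had at least 10 counts in the liver. Of the 62 genes found by product name, 38, 29 and 28 were above 1, beside 59.4%, 56.3% and 57.0% of all genes. Chosen after seeing the data, TMM factors from the salivary gland and liver libraries alone left 13 members called, 7 higher and 6 lower. No paired analysis was possible because each tissue has 1 library. Depth limits the ligands, of which all but WNT5B and WNT2 had at most 58 counts in any library, and such low members as RSPO1, LGR5, LGR6 and FZD10, with at most 18.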
